A study of Mus musculus with 24 samples.

Results

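Heat shock proteins and their partner chaperones were examined in the gastrocnemius, a calf muscle, of male B6D2F1 mice, a cross between inbred strains. The genes were chosen by name: every array probe whose gene symbol begins with Hspa, Hspb, Hsp90, Hspd, Hspe, Hsph, Dnaja, Dnajb or Dnajc, together with Tcp1 and Cct2 to Cct8. The platform carried 148 such probes of 77 genes. A probe was kept if its detection p-value, which compares its signal with that of negative control probes, was under 0.01 on 5 or more of the 24 arrays. This left 85 probes of 58 genes, of 8943 genes kept in all. The 19 genes with no kept probe were Cct6b, Dnaja1, Dnajb3, Dnajb7, Dnajb8, Dnajb13, Dnajb14, Dnajc1, Dnajc5b, Dnajc5g, Dnajc6, Dnajc9, Dnajc14, Hspa4l, Hspa12a, Hspa13, Hspa14, Hspb9 and Hspb11. The name rule is wider than the cytosol: 5 of the 58 genes encode chaperones of the lumen of the endoplasmic reticulum and 8 encode mitochondrial ones. It also took in Hspbap1 and Hspbp1, whose products bind heat shock proteins and are not heat shock proteins themselves.

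The study compared muscle of young and old mice and of old mice under chronic caloric restriction, taken from the colony kept for the National Institute on Aging, on Illumina bead arrays of 45281 probes. Young mice fed ad libitum were 8 months old (6 mice on 10 arrays), old mice fed ad libitum were 24 months old (6 mice on 7 arrays) and old caloric restricted mice were 24 months old (5 mice on 7 arrays). All were male and of 1 strain. The sources used here give neither the degree or onset of restriction nor whether the mice were fasted or when in the day they were sampled. Arrays with the same sample name were averaged as 1 mouse, and a p-value therefore reflects the spread between these 17 samples. Between 13625 and 15176 probes were detected per array, and all 9 listed fast muscle fibre genes, among them Ckm and Acta1, were detected on all 24 arrays. Of the 58 genes, 55 were detected on all 24 arrays, and none went undetected in a whole group. The heat-inducible Hspa1a was detected on 19 arrays, its near copy Hspa1b on 9 and Dnajc17 on 23.

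Chaperones bind unfolded or misfolded proteins and keep them from aggregating. The Hspa (Hsp70) proteins do so in cycles of ATP hydrolysis that are started by J-domain proteins (Dnaja, Dnajb and Dnajc) and reset by exchange factors such as Hsph1. The small heat shock proteins (Hspb) hold unfolded clients without ATP and are abundant in muscle, where several bind the sarcomere and its filaments. Hsp90 matures signalling proteins and myosin, the Tcp1 ring (Tcp1 and Cct subunits) folds actin and tubulin, and Hspd1 with Hspe1 forms the folding chamber of mitochondria. Heat and other stresses induce many of these genes through the transcription factor Hsf1, which binds heat shock elements, whereas unfolded protein in the endoplasmic reticulum induces Hspa5 and others through a separate element.

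Promoter windows of 300 bases, 250 before and 50 after the start of transcription, were read from RefSeq tables of the build GRCm38.p6, which held a window for 47 of the 58 genes. The windows below are shown because Hspa5 and Dnajc3, an endoplasmic reticulum chaperone and its J-domain partner, both passed a test between groups and in opposite directions. Capitals mark the endoplasmic reticulum stress element, CCAAT and CCACG with 9 bases between them, searched on both strands. The element lay 46 bases before the start of Hspa5 (chr2:34772007-34772061, plus strand), 86 before that of Dnajc3 (chr14:118937809-118937863, plus strand) and 193 before that of Hsp90b1 (chr10:86705620-86705674, minus strand), and Hsp90b1 held a second, on the other strand, 88 before it.
Hspa5: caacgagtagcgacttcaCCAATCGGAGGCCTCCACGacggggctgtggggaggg
Dnajc3: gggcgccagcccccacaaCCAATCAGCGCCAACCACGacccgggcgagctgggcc
Hsp90b1: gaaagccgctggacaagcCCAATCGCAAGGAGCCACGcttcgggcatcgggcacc
These 3 were the only genes of the 47 with the element: 3 of 60 windows held it (a gene can have several windows), against 0.119% of all 32851 windows in the table.

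The heat shock element was searched as GAANNTTC or TTCNNGAA on both strands, 2 inverted units, and as 3 units where a further unit followed. A 2-unit match stood in 18 of 60 windows (16 genes), against 15.1% of all windows, and a 3-unit match, which always contains a 2-unit one, in 6 of 60 (4 genes: Hspd1, Hspe1, Hsph1 and Dnajb6), against 0.603%. The windows shown next, with the element in capitals, belong to the inducible pair Hspa1a (chr17:34972235-34972278, minus strand) and Hspa1b (chr17:34959317-34959360, minus strand), which have the same letters here, to the small heat shock protein Hspb1 (chr5:135887784-135887827, plus strand), to Hsph1 (chr5:149636344-149636387, minus strand) and to Hspe1 (chr1:55088041-55088094, plus strand).
Hspa1a: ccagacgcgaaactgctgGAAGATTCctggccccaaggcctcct
Hspa1b: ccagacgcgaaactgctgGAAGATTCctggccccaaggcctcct
Hspb1: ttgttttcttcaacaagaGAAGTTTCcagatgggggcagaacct
Hsph1: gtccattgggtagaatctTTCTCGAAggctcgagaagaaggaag
Hspe1: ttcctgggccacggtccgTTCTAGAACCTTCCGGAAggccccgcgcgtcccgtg
The Hspe1 stretch is also the Hspd1 promoter read from the other strand, since the 2 genes point away from each other, and its 18 capitals merge 3 overlapping matches. These letters therefore count among the windows of both genes, so the counts of windows and genes are not counts of separate elements. A match is a description of letters, not of binding. None of Dnajb1, Hspa1l and Hspa2 had a match in its windows, which says only that these letters were not there. For Hsph1 and Hspb1 only 1 match each is shown, of 2 units; the second match of Hspb1 begins at the end of its stretch.

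Few chaperone genes passed the test in any comparison. Values are normalised log2 intensities, where a difference of 1 is a 2-fold change, and the threshold was a Benjamini-Hochberg adjusted p of 0.05 over all 8943 genes from limma. Between old and young ad libitum mice 1 of the 58 genes passed (1.72%), Hspb2, against 2.06% of all genes. Between restricted and old ad libitum mice 1 passed (1.72%), Hspa1l, against 3.18% of all genes. Between restricted old and young mice 4 passed (6.9%), Dnajb1 and Hspa5 higher and Dnajc3 and Hspbap1 lower, against 4.71% of all genes. These shares rest on 1, 1 and 4 genes, too few to set any of them apart from the share of all genes. In a bulk sample, fewer cells of a type and less RNA per cell cannot be told apart.

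By direction alone, 38 of the 58 genes had a higher mean in old than in young mice and 20 a lower one, with a median difference of 0.06, against 54.2% of all genes higher and a median of 0.02. Under restriction 23 were higher and 35 lower than in old ad libitum mice, with a median of -0.05, against 44.7% of all genes higher and a median of -0.02. With arrays weighted by quality the order turned round, with medians of -0.016 for these genes and -0.022 for all genes. Both comparisons share the old ad libitum mice, so they are not independent. Between restricted and young mice 31 were higher and 27 lower, with a median of 0.03, against 48.3% of all genes higher and a median of -0.01. Groups did not overlap at all for 3 genes between old and young mice (Hspb2, Hspa2 and Dnajc8, all above; 2.59% of all genes), for 2 between restricted and old ad libitum mice (Hspa1l and Hspa2, both below; 2.36% of all genes) and for 3 between restricted and young mice (Dnajb1 above, Hspbap1 and Hsph1 below; 5.13% of all genes).

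**Figure D1:**
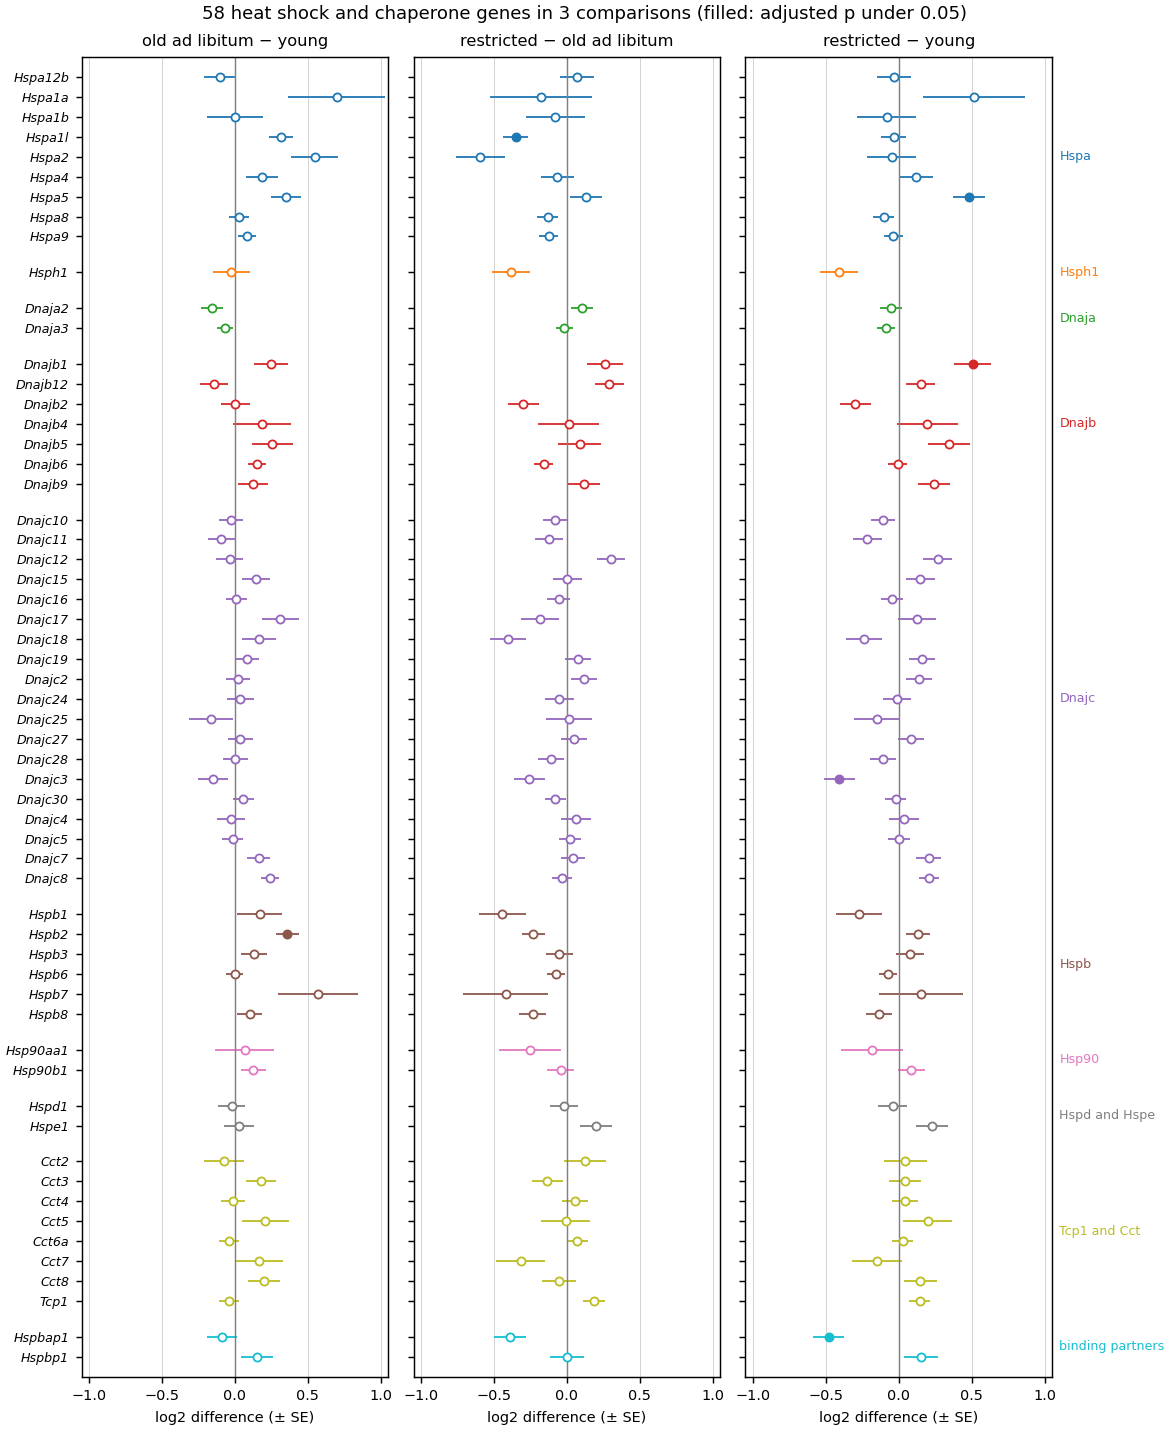
Log2 difference (x axis, ± SE from the fit over 17 mice) of each of the 58 genes, grouped and coloured by family, for old ad libitum against young (left), restricted against old ad libitum (middle) and restricted against young mice (right). Filled points passed an adjusted p of 0.05: Hspb2 on the left, Hspa1l in the middle, and Hspa5, Dnajb1, Dnajc3 and Hspbap1 on the right.

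Among the small heat shock proteins, Hspb2 rose with age. Hspb2 binds the myotonic dystrophy kinase and forms a muscle complex with Hspb3, and its gene lies on chromosome 9 beside that of the lens and muscle chaperone Cryab. Its value ran from 9.86 to 10.10 in young mice (median 10.01), from 10.15 to 10.60 in old ad libitum mice (median 10.36), and was 9.97, 10.08, 10.17, 10.17 and 10.26 in restricted mice. Every old ad libitum mouse lay above every young one, and the restricted mice lay between and overlapped both. The old ad libitum mean was 10.36 ± 0.15 (SD, n = 6), above the young mean, whose SD was 0.09 (n = 6), by a log2 difference of 0.36 ± 0.08 (SE; 1.28-fold, limma adjusted p = 0.0243). Restricted mice stood 0.23 under old ad libitum mice, which did not pass (adjusted p = 0.121). The age call was lost without old ad libitum mouse 5 or young mouse 1, 2 or 3, with differences from 0.31 to 0.40 and a highest adjusted p of 0.0692 over all 17 fits that left out a mouse. Cryab, from the neighbouring gene, differed by 0.20 with age (adjusted p = 0.405). Of 9 listed genes of denervated muscle, 5 also rose with age, with mean deviations of -0.67 to -0.37 in young and -0.02 to 1.90 in old ad libitum mice, and their part in the Hspb2 values was not tested.

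**Figure D2:**
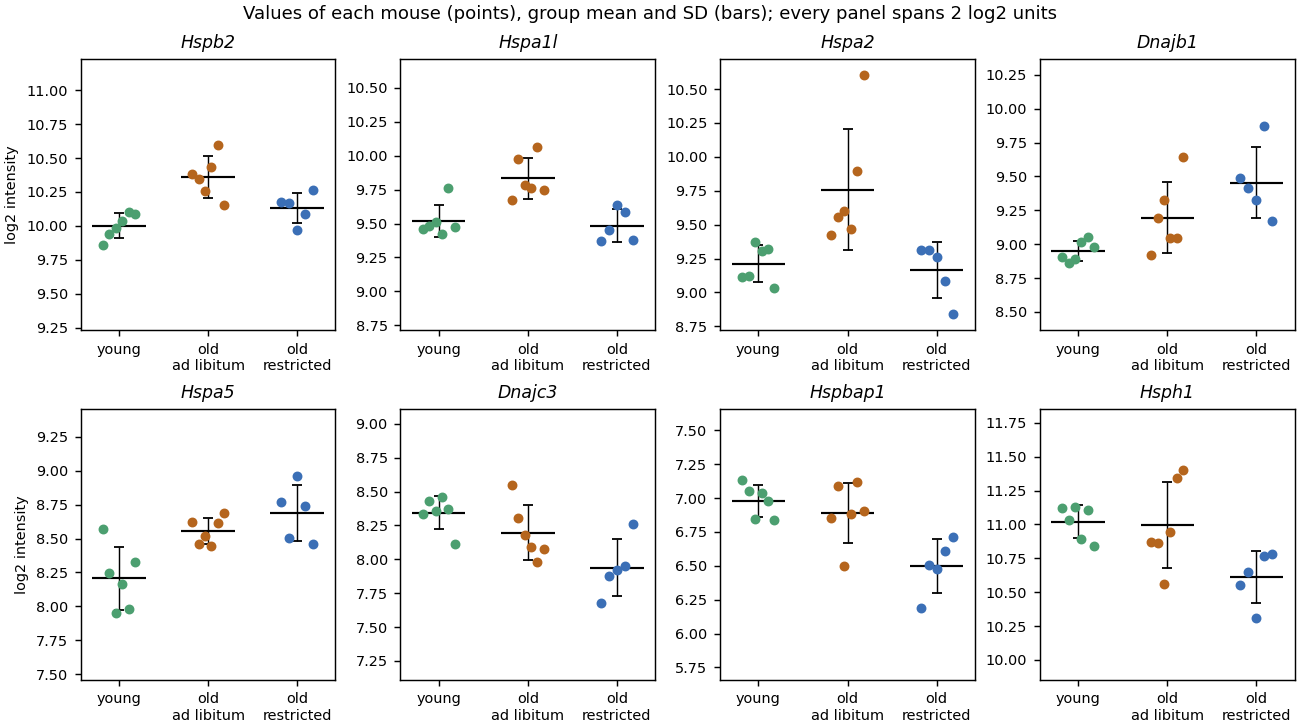
Normalised log2 intensity (y axis) of 8 genes in each mouse (points), by group, with group means and SD (bars). Each panel spans 2 log2 units. Hspb2 and Hspa2 are higher in every old ad libitum mouse than in any young one, and Hspbap1 and Hsph1 are lower in every restricted mouse than in any young one.

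The other Hspb genes did not pass in any comparison. All 6 Hspb means were lower in restricted than in old ad libitum mice, with a median difference of -0.23; none passed in limma and 3 had an unadjusted p under 0.05, as did 19.8% of all genes. Hspb1, which protects actin filaments, ran from 11.93 to 12.36 in old ad libitum mice (median 12.16), from 11.50 to 12.39 in young mice (median 11.99), and was 11.36, 11.52, 11.55, 12.02 and 12.02 in restricted mice. Restricted mice 1 to 3 were below every old ad libitum mouse, and the other pair overlapped that group. The difference under restriction was -0.44 ± 0.16 (SE; adjusted p = 0.129), and it was between -0.51 and -0.42 in each of the 4 chips.

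Hspb8, which works with Bag3 to clear damaged sarcomere proteins, ran from 14.48 to 15.01 in old ad libitum mice (median 14.84) and from 14.53 to 14.75 in young mice (median 14.68). It was 14.41, 14.48, 14.49, 14.59 and 14.71 in restricted mice, with a difference of -0.23 from old ad libitum mice (adjusted p = 0.152). Hspb6, a small heat shock protein of the contractile apparatus, was the steadiest of the family. Its values spanned 15.35 to 15.50 in young mice (median 15.43), 15.31 to 15.53 in old ad libitum mice (median 15.45) and 15.25, 15.32, 15.33, 15.40 and 15.48 in restricted mice. Hspb7, a cardiac and skeletal muscle chaperone of thin filaments, was the most variable. Its values were 10.93 to 12.28 in young mice (median 11.47), 11.30 to 12.92 in old ad libitum mice (median 12.23) and 11.15, 11.66, 11.71, 11.95 and 12.10 in restricted mice. The Hspb7 groups overlapped widely, and the age difference of 0.57 ± 0.28 (SE; adjusted p = 0.267) did not pass.

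Slow and fast muscle fibres differ in their chaperone content. All 10 listed slow fibre genes had a higher mean in restricted than in old ad libitum mice, by a median of 1.07, though none passed in limma (2 had an unadjusted p under 0.05). Their mean deviation ran from -1.84 to 0.82 in old ad libitum mice, from -1.33 to 1.85 in restricted mice and from -1.41 to 0.41 in young mice. The part of fibre makeup in the Hspb values was not tested.

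Of the 9 Hspa genes, 7 had a higher mean in old than in young mice and 7 a lower one in restricted than in old ad libitum mice. Hspa1l, the constitutive Hsp70 whose gene adjoins Hspa1a on chromosome 17, fell under restriction. It ran from 9.67 to 10.06 in old ad libitum mice (median 9.77) and was 9.37, 9.38, 9.45, 9.59 and 9.64 in restricted mice. In young mice it ran from 9.43 to 9.76 (median 9.48). Every restricted mouse lay below every old ad libitum mouse, while young mice overlapped both groups. The restricted mean was 9.49 ± 0.12 (SD, n = 5) and the old ad libitum mean 9.83 ± 0.15 (SD, n = 6), a log2 difference of -0.35 ± 0.09 (SE; 1.27-fold lower, limma adjusted p = 0.0330). The age difference of 0.32 ± 0.08 (SE) just missed the threshold (adjusted p = 0.0507) and passed under 7 of 11 other settings. Among these 7 were no background correction and the authors' values, which gave nearly the same result and are not separate checks. The diet call was lost when only the 2 groups compared were fitted (adjusted p = 0.114), and without old ad libitum mouse 2 or 5 or restricted mouse 1, 2, 3 or 4, with differences from -0.39 to -0.30 and a highest adjusted p of 0.0939. Under restriction 3 of 8 measured macrophage genes and both measured lymphocyte genes also fell (Cd3e, Cd79a and Ptprc were not measured). The macrophage mean deviation ran from -0.30 to 0.54 in old ad libitum and from -0.54 to 0.06 in restricted mice, that of the lymphocyte genes from 0.0029 to 1.13 and from -0.90 to -0.09, and their part in the Hspa1l values was not tested.

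Hspa2, an Hsp70 best known from the testis and also made in muscle, had the largest diet difference of the 58 genes and is described because of it, after its values were seen. It ran from 9.43 to 10.60 in old ad libitum mice (median 9.58), from 9.03 to 9.37 in young mice (median 9.21), and was 8.84, 9.08, 9.26, 9.31 and 9.32 in restricted mice. Every old ad libitum mouse lay above every mouse of both other groups. The differences were 0.55 ± 0.16 (SE; adjusted p = 0.0752) with age and -0.59 ± 0.17 (SE; adjusted p = 0.0600) under restriction, so neither passed. A second Hspa2 probe gave 0.66 and -0.65, which passed when all kept probes were tested (adjusted p = 0.0304 and 0.0421). Old ad libitum mouse 6 held the highest value, and without it the differences were 0.38 and -0.43. The same mouse had the highest mean of 9 listed genes of denervated muscle, 1.90 against -0.02 to 0.94 in the other old ad libitum mice, and the part of these genes in the Hspa2 values was not tested.

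Values of the stress-inducible pair were widely spread, between repeated arrays of a mouse as well as between mice. The SD was 0.647 between mice and 0.303 between arrays for Hspa1a, and 0.366 and 0.333 for Hspa1b. Hspa1a was 6.27, 6.34, 6.36, 6.95, 7.39 and 8.24 in old ad libitum mice, 5.45 to 6.73 in young mice (median 6.33) and 5.93, 6.44, 6.58, 7.30 and 7.46 in restricted mice. Old ad libitum mouse 2 was above the rest, and the age difference of 0.70 ± 0.33 (SE; adjusted p = 0.261) did not pass. Without that mouse the Hspa1a difference was 0.43. Hspa1a was detected on 6 of 10 young, 7 of 7 old ad libitum and 6 of 7 restricted arrays. The part of undetected arrays in its age difference was not tested. Hspa1b, close to the detection limit, ran from 5.36 to 6.04 in young mice (median 5.87) and from 5.53 to 6.45 in old ad libitum mice (median 5.71), and was 5.12, 5.50, 5.55, 6.16 and 6.34 in restricted mice. The 2 genes are nearly identical in coding sequence, and the probe sequences, which would show which copy each probe reads, were not used here.

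The constitutive Hspa8, the main Hsp70 of the cytosol, differed little on the probe used. It ran from 13.97 to 14.18 in young mice (median 14.07), from 13.97 to 14.26 in old ad libitum mice (median 14.08), and was 13.87, 13.92, 13.95, 14.03 and 14.08 in restricted mice. Its differences were 0.03 ± 0.07 (SE) with age and -0.13 ± 0.07 (SE) under restriction (adjusted p = 0.851 and 0.317). The other kept Hspa8 probes, also detected on all 24 arrays, gave 0.11 and -0.43 with age and -0.15 and 0.15 under restriction. Hspa9, the mitochondrial Hsp70 that pulls proteins through the inner membrane, ran from 13.72 to 13.86 in young mice (median 13.77), from 13.79 to 14.04 in old ad libitum mice (median 13.84), and was 13.62, 13.64, 13.76, 13.83 and 13.85 in restricted mice. All groups overlapped for both genes on the probes used. Hspa4 and Hspa12b, the remaining members, differed by 0.19 and -0.10 with age (adjusted p = 0.354 and 0.652).

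In the endoplasmic reticulum, Hspa5 rose and Dnajc3 fell in restricted old mice against young mice. Hspa5 (BiP) is the Hsp70 of that compartment, and Dnajc3 (p58IPK) delivers unfolded proteins to it. Hspa5 ran from 7.95 to 8.57 in young mice (median 8.21) and from 8.44 to 8.69 in old ad libitum mice (median 8.57), and was 8.46, 8.51, 8.74, 8.77 and 8.96 in restricted mice. By mouse means, young mouse 1 alone among the young mice reached the values of the old. Repeated arrays of 1 mouse differed more than mice did for Hspa5, with an SD of 0.246 against 0.186. Young mouse 6 ran from 7.89 on chip 4 to 8.59 on chip 2. The lowest young mice, 3 and 5 (7.95 and 7.98), were on chip 4 only. Old ad libitum mouse 3 and restricted mouse 2 also read lower on chip 4 (8.42 and 8.31) than on chip 2 (8.62 and 8.70). The restricted mean of 8.69 ± 0.21 (SD, n = 5) lay above the young mean of 8.21 ± 0.23 (SD, n = 6) by 0.48 ± 0.11 (SE; 1.40-fold, limma adjusted p = 0.0221). The age difference was 0.35 ± 0.10 (SE; adjusted p = 0.0823) and the diet difference 0.13 ± 0.11 (SE; adjusted p = 0.534). The call was lost with the 24 arrays fitted with the chip as a block (difference 0.36, adjusted p = 0.0723) and without restricted mouse 1 or 3 or young mouse 3 (differences 0.41 to 0.55 over all left-out fits, highest adjusted p 0.0694).

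Dnajc3 went the other way. It ran from 8.11 to 8.46 in young mice (median 8.37) and from 7.98 to 8.55 in old ad libitum mice (median 8.13), and was 7.68, 7.88, 7.92, 7.95 and 8.26 in restricted mice. Only restricted mouse 5, at 8.26, reached the young range, whose lowest value was that of young mouse 6. The restricted mean of 7.94 ± 0.21 (SD, n = 5) lay under the young mean of 8.34 ± 0.12 (SD, n = 6) by a log2 difference of -0.41 ± 0.11 (SE; 1.32-fold lower, limma adjusted p = 0.0391), with steps of -0.15 with age and -0.26 under restriction that did not pass. The call was lost without any 1 of restricted mice 1 to 4 or young mice 1 to 5, with differences from -0.49 to -0.34 and a highest adjusted p of 0.103, and with no detection filter.

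The other genes of that compartment did not pass in any comparison. Hsp90b1 (Grp94), its Hsp90, ran from 11.59 to 11.71 in young mice (median 11.67), from 11.59 to 11.91 in old ad libitum mice (median 11.79), and was 11.37, 11.64, 11.87, 11.91 and 11.93 in restricted mice, for an age difference of 0.13 (adjusted p = 0.451). Dnajb9 and Dnajc10, further J-domain partners of Hspa5, differed by 0.13 and -0.03 with age (adjusted p = 0.528 and 0.883). Between restricted and young mice the differences were 0.24 ± 0.11 (SE) for Dnajb9, -0.11 ± 0.08 (SE) for Dnajc10 and 0.08 ± 0.09 (SE) for Hsp90b1 (adjusted p = 0.201, 0.478 and 0.635). The 5 genes therefore had no common direction between restricted and young mice: 3 were higher and 2 lower.

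Among the cytosolic J-domain genes, Dnajb1 was higher in restricted old than in young mice. Dnajb1 (Hsp40) is the heat-inducible partner of Hspa1a and Hspa8 in refolding and in taking apart aggregates. It ran from 8.86 to 9.05 in young mice (median 8.94) and from 8.92 to 9.65 in old ad libitum mice (median 9.12), and was 9.17, 9.33, 9.41, 9.49 and 9.87 in restricted mice. All restricted mice lay above all young mice, and old ad libitum mice spread over both ranges. The restricted mean of 9.46 ± 0.26 (SD, n = 5) exceeded the young mean of 8.95 ± 0.08 (SD, n = 6) by 0.51 ± 0.12 (SE; 1.42-fold, limma adjusted p = 0.0296), in near-equal steps of 0.25 with age and 0.26 under restriction (adjusted p = 0.261 and 0.254). It was lost without any 1 of restricted mice 1 to 4 or young mice 1 to 4, with differences from 0.40 to 0.58 and a highest adjusted p of 0.0718. Immediate early genes, listed as a sign of handling, had a mean deviation of -0.74 to 0.02 in young, -0.24 to 0.96 in old ad libitum and -0.44 to 0.57 in restricted mice, with none of 6 past the threshold, and their part in the Dnajb1 values was not tested. Between restricted and young mice all 10 slow fibre genes had a higher mean (median 1.41, 1 past the threshold), and of 9 denervation genes 2 rose and 4 did not overlap between the groups. The part of both lists in the values of Dnajb1, Hspa5, Dnajc3 and Hspbap1 was not tested.

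The remaining Dnajb and Dnaja genes did not pass. Dnajb4 and Dnajb5, relatives of Dnajb1 found in muscle, differed by 0.18 and 0.26 with age (adjusted p = 0.646 and 0.327). Dnajb4 spanned 8.53 to 9.57 in young mice (median 9.22), 8.70 to 9.87 in old ad libitum mice (median 9.33) and was 8.93, 9.10, 9.29, 9.57 and 9.60 in restricted mice. Dnajb5 started from 8.22 in young mice (median 8.44, SD 0.32), spanned 8.55 to 9.10 in old ad libitum mice (median 8.77) and was 8.76, 8.76, 8.84, 8.89 and 9.25 in restricted mice. Both show ranges that overlap in every comparison. Dnajb12, a J protein anchored in the endoplasmic reticulum membrane and facing the cytosol, spanned 8.98 to 9.17 in young mice (median 9.06), 8.56 to 9.20 in old ad libitum mice (median 8.96) and was 9.03, 9.23, 9.24, 9.27 and 9.36 in restricted mice, a diet difference of 0.29 (adjusted p = 0.112). Dnajb6, which suppresses aggregation and is mutated in a limb-girdle muscular dystrophy, had 4 kept probes that disagreed. The probe used gave 0.15 with age and -0.16 under restriction (adjusted p = 0.191 and 0.182), while the other 3 gave -0.21, -0.11 and 0.01 with age and 0.36, 0.33 and 0.05 under restriction.

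Of the 2 Dnaja genes, Dnaja2 is a cytosolic Hsp70 partner and Dnaja3 a mitochondrial one. Dnaja2 spanned 10.82 to 11.01 in young mice (median 10.96), 10.64 to 11.03 in old ad libitum mice (median 10.77) and was 10.75, 10.82, 10.83, 10.98 and 11.08 in restricted mice. Dnaja3 spanned 12.71 to 12.87 in young mice (median 12.81), 12.67 to 12.78 in old ad libitum mice (median 12.72) and was 12.55, 12.71, 12.73, 12.75 and 12.81 in restricted mice. Neither passed in any comparison, and the age differences were -0.16 and -0.07.

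The 19 Dnajc genes are a mixed family whose J domain serves many tasks. With age they ranged from -0.17 to 0.31, with 12 higher, 7 lower and a median of 0.02, and under restriction from -0.40 to 0.30, with 9 higher and 10 lower. Dnajc8, a splicing factor partner, was above the young range in every old ad libitum mouse on the probe used. It ran from 8.98 to 9.20 in young mice (median 9.06), from 9.22 to 9.39 in old ad libitum mice (median 9.31), and was 9.09, 9.24, 9.26, 9.35 and 9.44 in restricted mice, an age difference of 0.24 ± 0.06 (SE; adjusted p = 0.0571). A second Dnajc8 probe, also detected on all 24 arrays, gave 0.04. Dnajc5, the cysteine string protein of synaptic vesicles, spanned 9.95 to 10.19 in young mice (median 10.04), 9.85 to 10.25 in old ad libitum mice (median 10.01) and was 9.87, 10.03, 10.08, 10.14 and 10.16 in restricted mice. On the probe used, the Dnajc5 differences lay between -0.02 and 0.02 in all 3 comparisons. A second Dnajc5 probe, also detected on all 24 arrays, gave -0.22 with age, 0.20 under restriction and -0.02 between restricted and young mice. The extremes under restriction were Dnajc18 at -0.40 (adjusted p = 0.0789) and Dnajc12 at 0.30 (adjusted p = 0.0980).

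The exchange factor Hsph1 and the binding partner Hspbap1 had their lowest means in restricted mice. Hspbap1 encodes a protein named for binding Hspb1. Hspbap1 ran from 6.84 to 7.13 in young mice (median 7.01) and from 6.50 to 7.11 in old ad libitum mice (median 6.89), and was 6.19, 6.48, 6.50, 6.61 and 6.72 in restricted mice. Every restricted mouse lay below every young mouse. The restricted mean of 6.50 ± 0.20 (SD, n = 5) lay under the young mean of 6.98 ± 0.12 (SD, n = 6) by a log2 difference of -0.48 ± 0.11 (SE; 1.40-fold lower, limma adjusted p = 0.0216), and the diet difference was -0.39 ± 0.11 (SE; adjusted p = 0.0569). The call was lost without restricted mouse 1 or 3 or young mouse 1 or 2, with differences from -0.54 to -0.40 and a highest adjusted p of 0.0575, and the difference was -0.28 under the setting that moved it most, where it still passed. Hspbp1, which releases the nucleotide of Hsp70, spanned 7.55 to 7.71 in young mice (median 7.61), 7.50 to 8.04 in old ad libitum mice (median 7.76) and was 7.31, 7.69, 7.81, 7.97 and 8.06 in restricted mice.

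Hsph1 (Hsp110), the exchange factor that turns Hsp70 towards disaggregation, ran from 10.84 to 11.13 in young mice (median 11.07) and from 10.56 to 11.40 in old ad libitum mice (median 10.91). It was 10.31, 10.55, 10.65, 10.77 and 10.78 in restricted mice, all below every young mouse. The difference between restricted and young mice was -0.41 ± 0.13 (SE; adjusted p = 0.0822), so it did not pass. Dnajb1 and Hsph1 act in one disaggregation machine with Hsp70. Between restricted and young mice their differences were 0.51 and -0.41, of opposite sign.

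Hsp90aa1, the inducible Hsp90 of the cytosol, spanned 9.16 to 9.92 in young mice (median 9.40), 8.81 to 10.32 in old ad libitum mice (median 9.54) and was 8.97, 9.11, 9.19, 9.47 and 9.58 in restricted mice. The groups overlapped, with differences of 0.07 ± 0.20 (SE) with age and -0.25 ± 0.21 (SE) under restriction (adjusted p = 0.884 and 0.539). The Hsp90aa1 age difference changed sign when arrays were weighted by quality (-0.09) and without old ad libitum mouse 6 (-0.09), and without that mouse the diet difference was -0.09. No probe was assigned to Hsp90ab1, the other Hsp90 of the cytosol, so that gene is not covered here.

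The mitochondrial chamber genes Hspd1 and Hspe1, which share the promoter shown above, did not pass. Hspd1 (Hsp60) spanned 12.42 to 12.69 in young mice (median 12.48), 12.26 to 12.80 in old ad libitum mice (median 12.49) and was 12.16, 12.51, 12.52, 12.57 and 12.58 in restricted mice. Hspe1 (Hsp10), its lid, spanned 10.70 to 11.20 in young mice (median 10.94), 10.68 to 11.07 in old ad libitum mice (median 10.98) and was 10.80, 11.14, 11.19, 11.19 and 11.42 in restricted mice. The diet differences were -0.02 ± 0.10 (SE) for Hspd1 and 0.20 ± 0.11 (SE) for Hspe1 (adjusted p = 0.946 and 0.317). Of the 8 mitochondrial members 5 were higher and 3 lower with age (median 0.04), 3 higher and 5 lower under restriction (median -0.02), and none passed in any comparison.

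The 8 subunits of the Tcp1 ring, which assemble into 1 complex, did not pass in any comparison on the probes used. At an unadjusted p under 0.05 there was 0 with age, 1 under restriction and 0 between restricted and young mice. The shares of all genes at that level were 19.4%, 19.8% and 21.5%. With age they ranged from -0.08 to 0.21, with 4 higher and 4 lower. Under restriction they ranged from -0.32 to 0.19. Tcp1 spanned 11.75 to 11.92 in young mice (median 11.82), 11.64 to 11.94 in old ad libitum mice (median 11.80) and was 11.87, 11.88, 11.94, 12.06 and 12.15 in restricted mice. Cct7 spanned 6.66 to 7.36 in young mice (median 7.16), 6.89 to 7.55 in old ad libitum mice (median 7.32) and was 6.41, 6.90, 6.95, 7.15 and 7.37 in restricted mice. These were the subunits at the 2 ends of the diet range on the probes used, and their groups overlapped. A second Tcp1 probe, also detected on all 24 arrays, gave -0.35 with age and 0.39 under restriction (unadjusted limma p = 0.0073 and 0.0049).

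The SD between mice within a group was 0.647 for Hspa1a, wider than in 98.6% of all genes, and 0.534 for Hspb7 (97.7%), 0.384 for Hsp90aa1 (94.5%), 0.379 for Dnajb4 (94.3%) and 0.366 for Hspa1b (93.5%). For Hspb7 and Hsp90aa1 repeated arrays of 1 mouse agreed far better, with SDs of 0.0930 and 0.0993. For Hspa1b they differed almost as much as mice did, with an SD of 0.333. For Hspa1a, detected on 19 arrays, the SD between arrays was 0.303. The SD between arrays exceeded that between mice for Hspbp1 (0.269 against 0.199), Hspa5 (0.246 against 0.186), Hspa4 (0.204 against 0.191) and Dnajb6 (0.0870 against 0.0844). At the other end, Dnaja3 had an SD between mice of 0.0689, narrower than in all but 0.783% of genes, and Hspb6 one of 0.0760 (1.44%). Over all genes the median SD was 0.178 between mice and 0.0939 between arrays of a mouse. Of the 58 genes, 5 were among the widest 10% of all genes and 9 among the narrowest 10%.

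**Figure D3:**
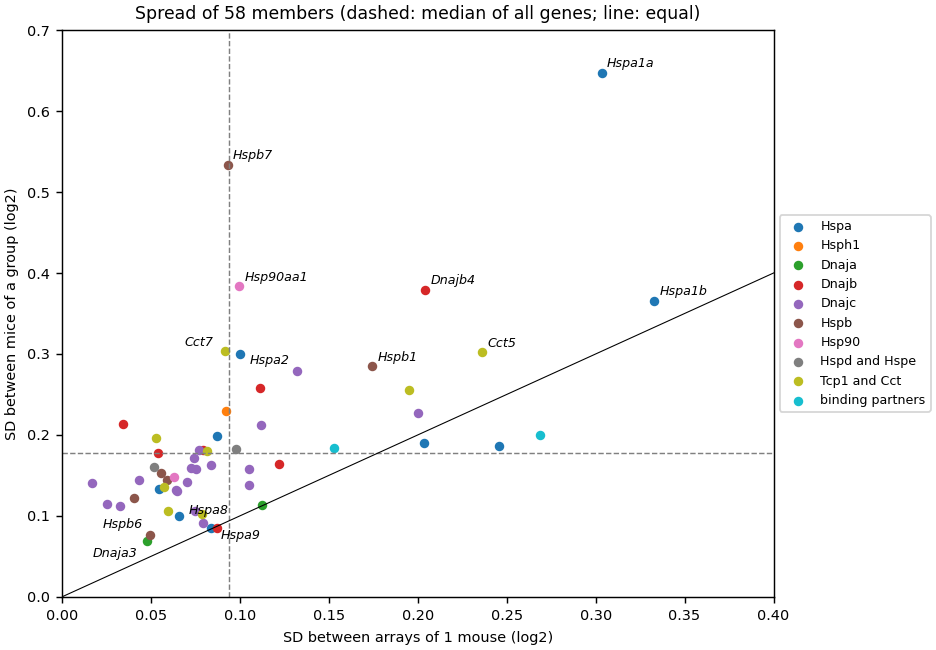
SD between mice of a group (y axis, log2 units) against SD between repeated arrays of 1 mouse (x axis, log2 units) for the 58 genes, coloured by family. Dashed lines are the medians of all 8943 genes and the solid line marks equal values. Hspa1a and Hspb7 stand highest, at 0.647 and 0.534, and Hspa1b lies near the solid line. Hspbp1, Hspa5, Hspa4 and Dnajb6 lie below the solid line.

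Where a gene had several kept probes, the probe with the highest mean was used, and the others did not always follow it. Of the 22 such genes, all probes had the same sign for 13 with age, for 16 under restriction and for 13 between restricted and young mice. The 3 probes of Dnajc19, a mitochondrial import factor, gave -0.52, 0.08 and 0.38 with age. Hspa8 gave -0.43, 0.03 and 0.11, Hspd1 -0.42 and -0.02, and Tcp1 -0.35 and -0.04. The 2 probes of Hsp90aa1 gave 0.07 and 0.40 with age and -0.25 and -0.51 under restriction, those of Hspb8 0.10 and 0.37 with age. Hspb2, Hspa1l, Dnajb1, Hspa5, Dnajc3 and Hspbap1 had 1 kept probe each, so no second probe bears on their calls.

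**Figure D4:**
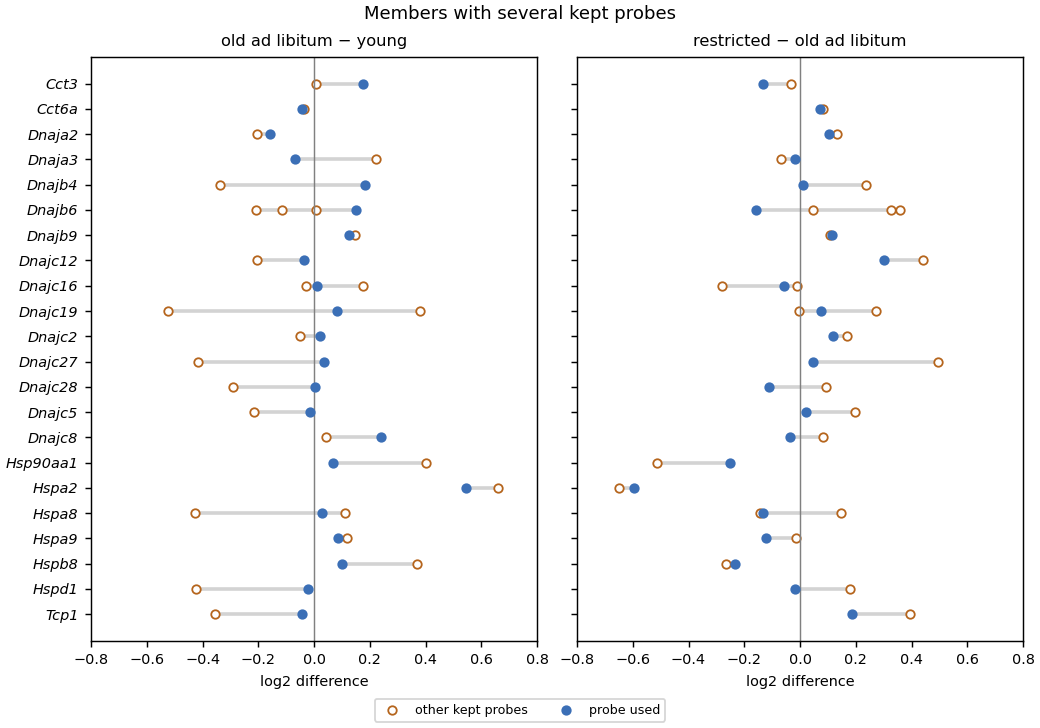
Log2 difference (x axis) of every kept probe of the 22 genes with several, for old ad libitum against young (left) and restricted against old ad libitum mice (right). Filled points are the probes used, open points the others, and grey bars join the probes of a gene. The widest bar with age is that of Dnajc19, from -0.52 to 0.38.

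The arrays were spread over 4 chips, each of which held all 3 groups, and differences were also computed within each chip. The chips are no independent check: 5 of the 17 mice had arrays on more than 1 chip, among them young mouse 6 on all 4, and the genes were called on these same arrays. The age difference of Hspb2 ran from 0.15 to 0.41 over the chips and the diet difference of Hspa1l from -0.45 to -0.26. Between restricted and young mice, Dnajb1 ran from 0.39 to 0.56, Hspa5 from 0.19 to 0.45, Dnajc3 from -0.43 to -0.23 and Hspbap1 from -0.49 to -0.18. Hspa2 ran from 0.30 to 1.42 with age and from -1.57 to -0.21 under restriction, with chip 3 at both far ends. On chip 3 the old ad libitum side was 1 array, that of mouse 6, which held the highest Hspa2 value. Each value within a chip rests on 1 to 3 arrays a group.

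**Figure D5:**
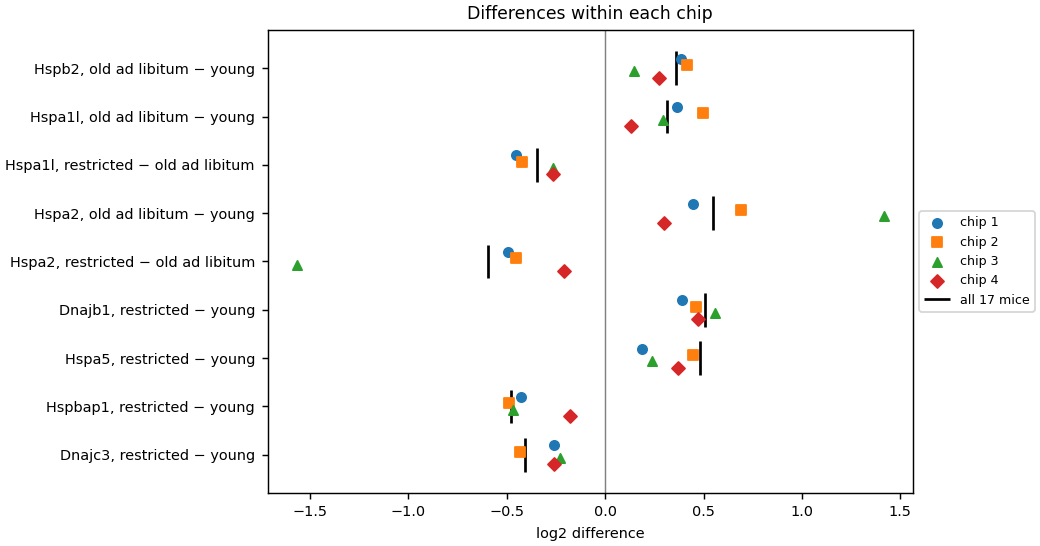
Log2 difference (x axis) computed within each of the 4 chips (symbols) for the 6 called genes and Hspa2, with the difference over all 17 mice as a black bar. No symbol of a row crosses 0, and Hspa2 on chip 3, at 1.42 and -1.57, lies farthest out. The only old ad libitum array on chip 3 was that of mouse 6.

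Pairs of genes that are neighbours in the genome or belong to a shared response were compared by their deviations from the group means over the 17 mice. None of 8 pairs passed a two-sided permutation test within groups after adjustment over the 8. Hspa1a and Hspa1l, neighbours on chromosome 17, had a Pearson r of 0.44 (permutation adjusted p = 0.422) and a Spearman rho of 0.41 (adjusted p = 0.523), and r was 0.30 without the 2 mice farthest from the median. Hspd1 and Hspe1 had an r of 0.35 and a rho of 0.16 (permutation adjusted p = 0.422 and 0.632), which dropped to an r of 0.011 without 2 mice. Hspa5 and Hsp90b1 had an r of 0.35 and a rho of 0.39 (permutation adjusted p = 0.422 and 0.523), and Hspb2 and Cryab an r of -0.22 and a rho of -0.22 (permutation adjusted p = 0.509 and 0.632). For Hspa1a and Hspa1b r was 0.39 and rho 0.28, for Hspa1b and Hsph1 -0.24 and -0.17, for Hsph1 and Dnajb1 0.22 and -0.03, and for Hspb1 and Hspb6 0.24 and 0.34.

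Co-chaperones and related factors that the name rule leaves out were followed from a list of 36 genes, of which 31 were measured and Hsf1, Cdc37, Pfdn1, Pfdn6 and Hyou1 were not. With age none passed (2 had an unadjusted p under 0.05), with a median difference of 0.05. Under restriction 1 of the 31 passed, against 3.18% of all genes. It was Cdc37l1, a relative of the Hsp90 partner that delivers kinases. Cdc37l1 ran from 9.48 to 10.09 in old ad libitum mice, from 9.52 to 9.90 in young mice and from 9.17 to 9.37 in restricted mice, all of them below both other groups. Its difference was -0.50 from old ad libitum mice (limma adjusted p = 0.0149) and -0.44 from young mice (adjusted p = 0.0213). Between restricted and young mice 1 of the 31 passed, against 4.71% of all genes. Groups did not overlap for 1 of the 31 under restriction and for 2 between restricted and young mice, against 2.36% and 5.13% of all genes. Calls of these listed partners were not followed over the other settings or with a mouse left out. Next under restriction came Cryab at -0.40 (adjusted p = 0.0975), Bag1, an Hsp70 exchange factor, at -0.19 (adjusted p = 0.126) and Tomm34 at -0.28 (adjusted p = 0.128).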

How the data were processed

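Illumina bead array signals of 24 arrays were used. Per the file headers, the deposited table holds an average signal intensity and a detection p-value for each probe and array, not normalized; the submitters' processing notes name GenomeStudio. The authors' series matrix holds intensity values of the same arrays on a linear scale and served as an alternative. Intensities were background corrected and quantile normalized with limma 3.58.1 (neqc, offset 16, negative controls inferred from detection p-values) in R 4.3.3, and arrays of a mouse were averaged. Probes with a detection p under 0.01 on 5 or more arrays were kept, and 1 probe per gene, that with the highest mean, was tested. Symbols came from the platform annotation, in which 34885 probes have 1 symbol, 18 several and 10378 are not listed. One limma fit over 17 mice gave all 3 comparisons, with Benjamini-Hochberg adjustment over 8943 genes. The test was also run on simulated data with planted differences. Genes were drawn independently there, without chip effects or repeated arrays, so that run does not bear on the calls made here. The number of mice limits the precision.

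The members and lists were chosen with earlier results of these data known. Values of each mouse are given for members past the threshold, for the 2 members of each family with the smallest p, and for a list of the best known chaperones where measured; Hspa2 was added after its values were seen. Compartments were assigned by hand. Same-numbered mice of different groups did not deviate together (median correlation -0.037 over 16 pairs), so numbers were not used as pairs. Figures were drawn with matplotlib 3.10.9.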

Additional observations from a re-analysis of the deposited data

Results flagged for a closer look

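In 7 of 90 groups of 5 or 6 mice, 1 mouse stood apart from the rest of its group by Dixon's criterion, and chance gives about 1 in 20. Old ad libitum mouse 6 had 14.04 for Hspa9, with the next mouse at 13.87. Restricted mouse 5 had 12.16 for Hspd1, below 12.51, and restricted mouse 1 had 9.25 for Dnajb5, above 8.89. Young mouse 6 had 8.11 for Dnajc3, below 8.34, and young mouse 1 had 5.36 for Hspa1b, below 5.82. Young mouse 5 had 9.76 for Hspa1l, above 9.51, and 10.82 for Dnaja2, below 10.96. Each of these mice, being the lowest or highest of its group, set an edge of that group's range, also for the called genes Dnajc3 and Hspa1l.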

How the results depend on the processing

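With age, the count of chaperone genes past the threshold, 1, became 2 with probes detected on all 24 arrays or with a trend and robust prior, 3 with no background correction, with the authors' values, with every kept probe or with the chip as a block, and 4 with array weights; the genes called went from 184 to 95 with no detection filter, 510 with every kept probe, 281 with the chip block, 107 with the mouse number as a replicate block and 482 with array weights. Under restriction, 1 became 2 with every kept probe, 3 with the chip block and 0 with the replicate block or with only the 2 groups compared, and 284 genes became 88 and 24 in the last 2. Between restricted and young mice, 4 became 8 with array weights, and 421 genes became 273 with no filter, 645 with every probe, 244 with the replicate block and 1147 with array weights. Leaving out 1 mouse at a time gave 32 to 262 genes and 0 to 2 chaperones with age, 66 to 502 and 0 to 3 under restriction, and 131 to 691 and 0 to 5 between restricted and young mice; the median chaperone difference lay between 0.042 and 0.081, -0.063 and -0.018, and 0.0065 and 0.050. The median under restriction was -0.016 with array weights (all genes -0.022) and -0.023 with the replicate block (all genes -0.020), against -0.051 (all genes -0.021). The Hspb2, Dnajb1 and Hspbap1 calls passed under all 11 other settings, Hspa5 under 10, and Hspa1l and Dnajc3 under 9 each; with the replicate block, Hspa1l (adjusted p = 0.0658) and Dnajc3 (adjusted p = 0.0639) no longer passed, and with no filter more genes were tested and Dnajc3 did not pass (adjusted p = 0.0636). No background correction and the authors' values gave nearly the same result, so they are not separate checks. They called 216 and 216 genes with age, 297 and 298 under restriction, and 441 and 441 between restricted and young mice, with the same chaperones. No named value that passed changed sign. The causes were not tested. Precision is limited by 5 or 6 mice a group: the median SE of a chaperone difference was 0.095 with age and 0.099 under restriction.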
